A study of Homo sapiens with 6 samples.

Results

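The expressed antisense RNA genes of U87-MG cells are described here, each beside the sense gene whose name it carries. The genes were selected by their symbol and their level: the symbol had to end in -AS followed by digits, and the mean had to reach 1 TPM over the 6 libraries. TPM is a share of each library's transcripts, adjusted for gene length. EPB41L4A-AS1 was left out by the rule. Of 1822 such symbols among the 61731 rows of the table, 316 genes were kept. The mean over all libraries chose them and is given as a description, while the difference between the groups was not used in the choice.

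U87-MG is a long-established line of human glioblastoma cells. Total RNA was sequenced from 3 libraries of negative control cells and 3 libraries labelled as CHRM3 knockdown, whose genotype label reads CHRM Knockdown and for which the study describes infection with a lentivirus against CHRM3 (which of its designed sequences these cells carried is not stated). The study addressed what the loss of CHRM3, the M3 muscarinic acetylcholine receptor, does to the transcriptome of these cells. The labels do not say whether the libraries came from separate cultures, so each p-value measures only the spread between these libraries, which may be technical.

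CHRM3 itself (ENSG00000133019) was listed at 0.02, 0.09 and 0.13 TPM in control replicates 1, 2 and 3 and at 0.13, 0.01 and 0.02 TPM in the libraries labelled knockdown. The groups overlapped (exact two-sided permutation test, p = 0.80, where 3 against 3 libraries cannot go below 0.10), and a reduction of CHRM3 was not detectable. Only the labels place a library in a group, so directions compare knockdown-labelled libraries with the negative control. Both antisense genes named after the receptor, CHRM3-AS1 and CHRM3-AS2, were listed at 0 in all 6 libraries.

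An antisense RNA gene is transcribed from the strand opposite to a neighbouring or overlapping gene, often from a shared promoter region that fires in both directions. Some such RNAs are known to act on the gene across from them, through the act of transcription, through chromatin or by pairing with its RNA, and many have no known role. Most are spliced and less abundant than messenger RNAs. A -AS symbol records position and not function.

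Of the 316 antisense genes, 315 had coordinates in GENCODE 29 (GRCh38), and 235 carried the gene type antisense there, 35 processed transcript, 34 lincRNA and 6 bidirectional promoter lncRNA. A sense partner was found for 311 of them, and 5 names (HOXA-AS2, HOXB-AS1, HOXD-AS2, ZNF295-AS1 and TEMN3-AS1) matched no gene. Several antisense genes can share a partner, so the 311 pairs held 307 different sense genes. The gene bodies of 229 pairs overlapped and shared exonic bases, a median of 11.2% of the antisense gene's exonic bases, and 58 overlapped without shared exonic bases. A further 16 pairs lay back to back, 5 lay apart, 1 lay end to end and 1, FAM131B-AS2, lay on the strand of its partner. In 191 genes a transcript start lay within 1000 bases of a start of the partner, and in 88 within 100 bases. Whether reads were counted by strand is not stated, so where exons overlap, reads of an antisense gene and of its partner cannot be told apart.

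Antisense genes were mostly of low level. Their means ran from 1.02 to 157 TPM with a median of 3.13 TPM, and 22 reached 20 TPM. All 316 were above 0 in every library. The mean was at least 1 TPM in both groups for 292 genes, under 1 TPM in the controls for 11 and under 1 TPM in the knockdown-labelled libraries for 13. Genes that reach the limit through 1 group had to differ, and 3 of those 11 passed as higher and 1 of those 13 as lower in the test given further on. Just inside the limit lay FOXD2-AS1, CCDC18-AS1 and IRF1-AS1, each at 1.02 TPM, PRDX6-AS1 at 1.02 TPM and FLRT2-AS1 at 1.04 TPM. Just outside lay GATA6-AS1 at 0.985, THBS2-AS1 at 0.982, ROR1-AS1 at 0.978, LRP4-AS1 at 0.973 and CPNE8-AS1 at 0.972 TPM.

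PPP1R14B-AS1, opposite a gene for an inhibitor of protein phosphatase 1, had the highest mean. It was at 165.15, 148.16 and 158.51 TPM in control replicates 1, 2 and 3 and at 150.05, 162.61 and 157.79 TPM in the knockdown-labelled ones, and the groups overlapped. ZNF232-AS1 stood at 78.26, 72.71 and 81.03 TPM in the controls against 72.56, 82.77 and 82.70 TPM. TUBA1B-AS1, opposite an alpha-tubulin gene, was at 71.98, 64.77 and 51.79 TPM in the controls against 64.93, 72.99 and 81.79 TPM. In both, the values of the groups overlapped. PRR34-AS1 was at 41.81, 49.17 and 35.12 TPM in the controls against 47.26, 53.86 and 49.57 TPM, which overlapped as well. NECTIN3-AS1, the other of the 5 most abundant genes, was higher in every knockdown-labelled library and is described with its partner further on. The summed level of all 316 genes was 2207, 2210 and 2220 TPM in the controls and 2142, 2244 and 2250 TPM in the knockdown-labelled libraries, so the total did not separate the groups.

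Against its sense partner, the antisense gene was lower in all 6 libraries in 205 pairs and higher in all 6 in 82, and the order changed between libraries in 24. The median partner level was 12.1 TPM, and 52 partners were under 1 TPM. FGD5-AS1 had a mean of 44.9 TPM where FGD5 had 0.00833 TPM, and SLC7A14-AS1 was expressed where SLC7A14, of an amino acid transporter family, was at or under 0.23 TPM in every library. FGD5-AS1 was chosen here after its values were seen. TUBA1B had 3594 TPM beside the 68.0 TPM of TUBA1B-AS1, which shares 1309 of its 1632 exonic bases with it, so how much of the antisense level comes from reads of TUBA1B cannot be told apart. The plot of levels shows all pairs on 1 scale.

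**Figure D1:**
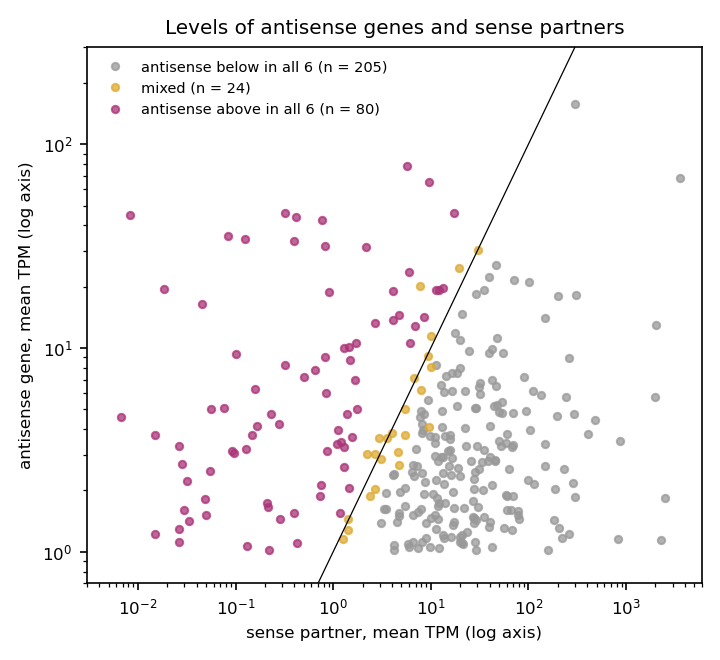
Mean TPM over the 6 libraries of each antisense gene (vertical, log axis) against its sense partner (horizontal, log axis), coloured by whether the antisense gene was above or below its partner in all 6 libraries. The line marks equal levels, 205 pairs lie below it in every library, and 2 pairs whose partner was at 0 in all libraries could not be drawn on the log axis.

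Promoter sequences were looked up by symbol in RefSeq (GRCh38.p14), as windows of 300 bases from 250 before to 50 after each start. A window was found for 239 antisense genes, and for both genes of 211 pairs. Where a gene had several, the windows of a pair with the nearest starts were used, and in 78 pairs these overlapped on opposite strands. The 302 antisense windows held a median of 25 CG dinucleotides against 14 in all 35116 windows, and the letters TATAAA, searched on both strands, were in 4.97% of them against 11.5% of all. CCAAT was in 25.5% against 34.6%, ACGTG in 25.2% against 21.4%, TGANTCA in 7.28% against 7.71% and TGANNNNGC in 46.4% against 41.8%. TGANTCA followed by GC would also be read as TGANNNNGC. The 302 antisense windows belong to genes kept for their level, whereas the 35116 were not chosen by level. The part of level in these differences was not tested.

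Genes were tested on log2(TPM + 1) with limma, over all 13722 genes whose mean reached 1 TPM, at a Benjamini-Hochberg adjusted p under 0.05. In the knockdown-labelled libraries 31 of the 316 antisense genes were lower, 32 were higher, and 253 did not pass. Over all tested genes 24% passed as lower and 12.1% as higher, where the shares of the antisense genes were 9.81% and 10.1%. Both shares move with the scaling: after median-of-ratios scaling 22 antisense genes were lower and 37 higher (6.96% and 11.7%), beside 2233 and 2310 of all genes (16.3% and 16.8%). After quantile normalization the counts were 22 and 38 (6.96% and 12.0%), beside 2229 and 2233 (16.2% and 16.3%). The groups did not overlap in 104 antisense genes (32.9%), against 50.2% of all tested genes. The median log2 fold change of the antisense genes was 0.0080 against -0.060 for all tested genes. Fold changes are on the log2(TPM + 1) scale, which understates those of genes at low level.

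The antisense genes were of lower level and wider spread than all tested genes. The median residual SD on the log2 scale was 0.18 in the antisense genes and 0.087 in all tested genes, and their median levels were 3.13 and 12.4 TPM. Of 102 antisense genes with a mean of 1 to under 2 TPM, 6.86% passed in either direction, against 11.8% of all genes at that level. From 2 to under 5 TPM the shares were 21.7% of 115 and 20.2% of 2401 genes, from 5 to under 20 TPM 29.9% of 77 and 32.6% of 4521, and from 20 TPM 36.4% of 22 and 53.3% of 5285. The part of level and spread in the count was not tested. Without knockdown replicate 3 the count of higher genes fell from 32 to 18. With no limit on low values 18 antisense genes were lower and 16 higher, and with a limit of 5 TPM, which 99 of the 316 reached, 19 and 12. These limits changed the number of genes tested, to 30412 and 9806. Shares of all tested genes are not given for these limits or without knockdown replicate 3. Whether the antisense genes moved more than all genes was not tested.

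**Figure D2:**
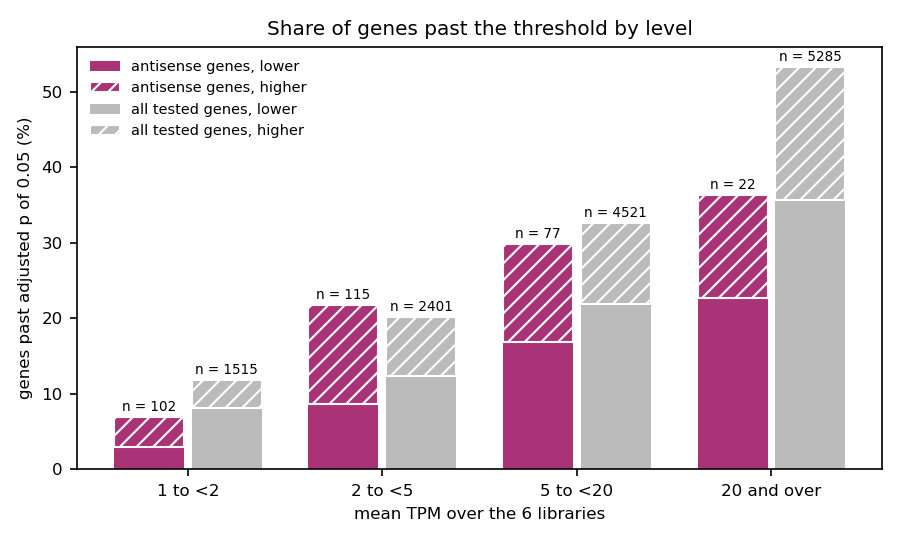
Share of genes past the adjusted p of 0.05 (percent, plain bars for falls, hatched bars for rises) by mean TPM, for antisense genes and for all tested genes, with the number of genes above each bar. The share rises with level in both, from 6.86% to 36.4% of antisense genes and from 11.8% to 53.3% of all genes.

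With a limit of 1 on the absolute log2 fold change as well, 2 antisense genes were lower (GCLC-AS1 and MYG1-AS1) and 4 higher, among them FIBCD1-AS1, KANSL1-AS1 and NARF-AS2. Of all tested genes 1.2% were lower and 0.67% higher by that rule. Without knockdown replicate 3, 2 genes were higher, and with a pseudocount of 0.1 TPM 4 were lower and 10 higher.

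GCLC-AS1 (ENSG00000249379) fell most. Its plus-strand locus (chromosome 6, 53503185 to 53506919) is inside the body of GCLC, which encodes the catalytic subunit of glutamate-cysteine ligase, the first enzyme of glutathione synthesis. Its level was 12.70, 12.56 and 11.60 TPM in control replicates 1, 2 and 3 and 3.42, 3.65 and 3.72 TPM in the knockdown-labelled ones. The groups lay far apart, with means of 12.3 ± 0.599 and 3.6 ± 0.157 TPM (SD, n = 3 each), a log2 fold change of -1.53 ± 0.06 (SE) and an adjusted p of 2.00e-05. GCLC went from 21.8 ± 1.59 to 17.6 ± 1.31 TPM (SD, n = 3 each; log2 fold change -0.29, adjusted p = 0.0227), and its call was lost without control replicate 2 (adjusted p = 0.0590), control replicate 3 (0.0670) or knockdown replicate 3 (0.0592) and after either scaling (0.0528 and 0.0591) or with no limit on low values (0.0553; range over the alternatives 0.0156 to 0.0698). The antisense-to-sense ratio fell by 1.24 on the log2 scale (adjusted p = 0.0029). The exons of the pair share 7 bases. The RefSeq window of GCLC-AS1 (chr6:53493260-53493559, plus strand) ends before the GENCODE gene begins at 53503185, so it is not at the start of that gene. It is printed because this gene changed most among the falls. The TGANTCA match in the window, the letters read by AP-1 factors, is in capitals, and the TGANNNNGC match is left in lower case. TGANTCA was also in the windows of MUC12-AS1, which fell, and SERTAD4-AS1, which rose.
GCLC-AS1: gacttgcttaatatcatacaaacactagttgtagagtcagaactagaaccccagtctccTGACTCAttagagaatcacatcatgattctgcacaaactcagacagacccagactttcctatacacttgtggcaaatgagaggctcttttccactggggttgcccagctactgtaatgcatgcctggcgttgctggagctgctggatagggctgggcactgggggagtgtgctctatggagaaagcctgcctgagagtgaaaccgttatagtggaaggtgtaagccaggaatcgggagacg

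MYG1-AS1 (ENSG00000257605; minus strand of chromosome 12, 53298655 to 53300314), opposite a gene for an exonuclease, was at 29.91, 29.23 and 30.21 TPM in the controls and at 11.80, 12.36 and 12.31 TPM in the knockdown-labelled libraries. The spread within each group was small beside the gap, and the log2 fold change was -1.23 ± 0.04 (SE; adjusted p = 6.83e-06). MYG1 fell as well, from 112 ± 1.95 to 89.8 ± 5.92 TPM (SD, n = 3 each; log2 fold change -0.31, adjusted p = 0.00372), and the ratio within the pair fell by 0.91 (adjusted p = 0.00131). MYG1-AS1 and MYG1 share 120 exonic bases, where their reads cannot be told apart. PFDN5, a prefoldin subunit whose gene overlaps MYG1-AS1 on the opposite strand with 0 shared exonic bases, stood at 671 ± 5.70 and 671 ± 14.4 TPM (SD, n = 3 each).

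FLG-AS1, opposite the filaggrin gene of the epidermis, was at 2.48, 2.88 and 2.29 TPM in the controls and at 0.83, 1.16 and 0.74 TPM in the knockdown-labelled libraries (log2 fold change -0.90 ± 0.14 SE, adjusted p = 0.00331). SUGCT-AS1, which overlaps a gene for a mitochondrial CoA transferase without shared exonic bases, was at 3.52, 3.37 and 3.73 against 1.17, 1.49 and 2.11 TPM (-0.83 ± 0.15 SE, adjusted p = 0.00637). In neither did the groups overlap. SUGCT fell too, from 21.8 ± 1.33 to 16.4 ± 1.52 TPM (SD, n = 3 each; log2 fold change -0.39, adjusted p = 0.00933). FLG itself was under 1 TPM and was not tested. FLG-AS1 had a mean of 0.91 TPM in the knockdown-labelled libraries, so it reached the limit through its controls.

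ST3GAL6-AS1, whose start lies 33 bases from one of ST3GAL6, a sialyltransferase gene, was at 4.24, 5.99 and 6.75 TPM in the controls and at 2.32, 3.19 and 3 TPM in the knockdown-labelled libraries. Every control lay above every knockdown-labelled library (log2 fold change -0.78 ± 0.17 SE, adjusted p = 0.013), and the call was lost without control replicate 2 (adjusted p = 0.0531; range over the alternatives 0.00735 to 0.0531). ST3GAL6 fell from 9.67 ± 0.613 to 6.60 ± 0.930 TPM (SD, n = 3 each; log2 fold change -0.50, adjusted p = 0.0105). ST3GAL6-AS1 and ST3GAL6 share 107 exonic bases, where their reads cannot be told apart. SLC7A14-AS1 was at 19.49, 22.82 and 19.90 against 11.60, 12.21 and 12.93 TPM (-0.71 ± 0.07 SE, adjusted p = 0.000642). MUC12-AS1, opposite a mucin gene, was at 24.22, 21.47 and 24.09 against 15.60, 12.74 and 16.65 TPM (-0.61 ± 0.10 SE, adjusted p = 0.0048). The groups of both were apart, while MUC12 stood at 4.11 ± 0.686 and 4.07 ± 0.665 TPM (SD, n = 3 each; adjusted p = 0.956). PTOV1-AS2 was at 8.26, 7.81 and 6.60 against 5.40, 5.44 and 3.54 TPM (-0.58 ± 0.16 SE, adjusted p = 0.0305), a call lost without control replicate 1 (adjusted p = 0.1) or 2 (0.0961) or with no limit on low values (0.0826; range over the alternatives 0.0141 to 0.1).

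**Figure D3:**
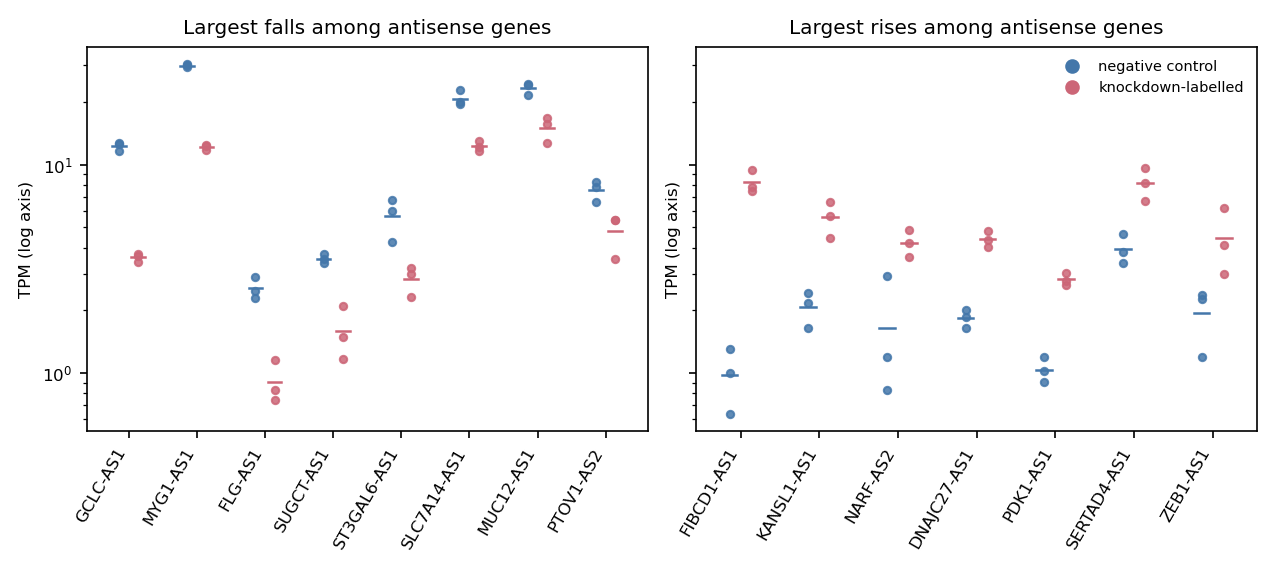
TPM of each library (log axis) for the 8 largest falls and 7 of the 8 largest rises among antisense genes past the adjusted p of 0.05. Points are libraries, short lines are group means of 3 libraries, and in each gene shown the points of the groups do not overlap.

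FIBCD1-AS1 (ENSG00000236658) rose most. Its plus-strand locus (chromosome 9, 130933851 to 130945520) overlaps FIBCD1, which encodes a membrane receptor that binds chitin, with 0 shared exonic bases. The antisense gene was at 1, 1.3 and 0.64 TPM in control replicates 1, 2 and 3 and at 7.46, 7.80 and 9.45 TPM in the knockdown-labelled ones. Its groups were far apart, with a log2 fold change of 2.23 ± 0.15 (SE) and an adjusted p of 0.000136. The controls had a mean under 1 TPM, so the gene reached the limit through its knockdown-labelled libraries. FIBCD1 was at 5, 4.2 and 4.03 TPM in the controls and at 9.37, 11.33 and 13.03 TPM in the knockdown-labelled libraries, and it rose as well (log2 fold change 1.17 ± 0.13 SE, adjusted p = 0.000821). The antisense gene rose by more than its partner (ratio 1.06 ± 0.17 SE on the log2 scale, adjusted p = 0.00972). This was the only pair of which both genes passed the fold limit. The RefSeq window of FIBCD1-AS1 lies inside the GENCODE locus of this antisense gene, past the start of the locus. The windows of FIBCD1-AS1 (chr9:130940096-130940395, plus strand) and FIBCD1 (chr9:130939198-130939497, minus strand) do not overlap and are printed since both genes rose, with the only TGANNNNGC match, a core bound by NRF2, in capitals. Of all windows 41.8% hold these letters, which were also found in those of MUC12-AS1 and GCLC-AS1, which fell.
FIBCD1-AS1: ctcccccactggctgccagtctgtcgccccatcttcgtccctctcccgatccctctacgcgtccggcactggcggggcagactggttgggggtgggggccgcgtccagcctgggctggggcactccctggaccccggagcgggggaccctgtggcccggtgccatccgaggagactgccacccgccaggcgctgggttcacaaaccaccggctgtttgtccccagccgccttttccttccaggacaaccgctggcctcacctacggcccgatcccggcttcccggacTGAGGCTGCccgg
FIBCD1: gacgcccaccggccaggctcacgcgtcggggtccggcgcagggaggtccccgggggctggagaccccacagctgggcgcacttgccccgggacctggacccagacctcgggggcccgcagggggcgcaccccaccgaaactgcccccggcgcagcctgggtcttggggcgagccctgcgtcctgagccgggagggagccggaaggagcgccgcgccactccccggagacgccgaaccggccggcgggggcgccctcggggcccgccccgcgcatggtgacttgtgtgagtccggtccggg

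PDK1-AS1 (minus strand of chromosome 2, 172480840 to 172556596) rose with PDK1, a kinase that switches off pyruvate dehydrogenase and is known as a target of hypoxia-inducible factors. The antisense gene was at 0.91, 1.19 and 1.02 TPM in the controls and at 2.65, 2.78 and 3.03 TPM in the knockdown-labelled libraries (log2 fold change 0.91 ± 0.11 SE, adjusted p = 0.00136). PDK1 was at 6.90, 5.90 and 5.97 against 14.26, 15.48 and 15.29 TPM (1.14 ± 0.07 SE, adjusted p = 9.44e-05). The groups were apart in both genes, and the ratio within the pair did not pass (-0.24 ± 0.15 SE, adjusted p = 0.342). Their exons share 445 bases, so reads of the pair cannot be told apart there. ACGTG, the core of the elements that hypoxia-inducible factors bind, was found at 2 positions on either strand in each window, those of PDK1-AS1 overlapping as CACGTG. Both windows are printed with these letters in capitals (chr2:172556415-172556714, minus strand; chr2:172555840-172556139, plus strand), and 21.4% of all windows hold them. ACGTG was also at 2 positions in the window of SLC7A14-AS1, which fell, and at 3 in that of PTOV1, the partner of PTOV1-AS2, which fell.
PDK1-AS1: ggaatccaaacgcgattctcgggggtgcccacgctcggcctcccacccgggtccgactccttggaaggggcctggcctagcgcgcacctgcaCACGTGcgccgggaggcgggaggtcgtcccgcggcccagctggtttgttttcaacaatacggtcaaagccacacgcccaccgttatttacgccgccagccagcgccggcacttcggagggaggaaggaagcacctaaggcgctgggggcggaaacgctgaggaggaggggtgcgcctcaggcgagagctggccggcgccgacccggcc
PDK1: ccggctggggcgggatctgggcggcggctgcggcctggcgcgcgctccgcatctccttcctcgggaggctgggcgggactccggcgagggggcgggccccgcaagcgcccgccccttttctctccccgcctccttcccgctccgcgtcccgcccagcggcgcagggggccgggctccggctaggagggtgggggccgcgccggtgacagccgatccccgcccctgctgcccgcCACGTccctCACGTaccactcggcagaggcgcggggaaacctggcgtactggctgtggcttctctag

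KANSL1-AS1, opposite a gene for a subunit of a histone acetyltransferase complex, was at 1.65, 2.43 and 2.16 TPM in the controls and at 4.44, 5.70 and 6.62 TPM in the knockdown-labelled libraries (log2 fold change 1.09 ± 0.16 SE, adjusted p = 0.00264). KANSL1 did not pass (8.59 ± 0.849 and 7.66 ± 0.613 TPM, SD, n = 3 each; adjusted p = 0.256), while the ratio within the pair did (1.24 ± 0.20 SE, adjusted p = 0.00967). NARF-AS2 was at 2.92, 0.83 and 1.2 against 3.62, 4.19 and 4.85 TPM (1.05 ± 0.28 SE, adjusted p = 0.0295). Control replicate 1 was the highest control of NARF-AS2, and leaving out any 1 of the other libraries lost the call (adjusted p from 0.0581 to 0.0971), as did testing with no limit on low values (0.0840; range over the alternatives 0.00381 to 0.0971). Its partner NARF rose from 37.9 ± 1.64 to 42.9 ± 2.49 TPM (SD, n = 3 each, log2 fold change 0.17, adjusted p = 0.0445). The call of NARF was lost under 9 of 15 alternatives (range of adjusted p 0.010 to 0.125). The exons of this pair share 101 bases. DNAJC27-AS1 was at 1.85, 1.65 and 2.01 against 4.36, 4.82 and 4.01 TPM (0.93 ± 0.10 SE, adjusted p = 0.000819), with its partner DNAJC27 at 1.14 TPM or under in every library. SERTAD4-AS1 was at 4.65, 3.8 and 3.37 against 6.69, 9.61 and 8.15 TPM (0.89 ± 0.15 SE, adjusted p = 0.00461), and its partner was under 1 TPM on average. The groups of these 4 antisense genes did not overlap.

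ZEB1-AS1, opposite a transcription factor gene of the epithelial-mesenchymal transition, was at 2.28, 1.19 and 2.36 TPM in the controls and at 4.13, 3 and 6.16 TPM in the knockdown-labelled libraries (log2 fold change 0.87 ± 0.26 SE, adjusted p = 0.0415). Leaving out any 1 library except knockdown replicate 2 lost the call (adjusted p from 0.0713 to 0.113), as did testing with no limit on low values (0.113), from 0.1 TPM (0.0597) or without the trend (0.0584; range over the alternatives 0.0127 to 0.113). ZEB1 rose from 5.98 ± 0.537 to 8.21 ± 0.0361 TPM (SD, n = 3 each; log2 fold change 0.40, adjusted p = 0.0063). ZEB1-AS1 and ZEB1 share 366 exonic bases, where their reads cannot be told apart.

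Some large mean differences did not pass. CPB2-AS1, chosen after its values were seen, was at 0.66, 0.50 and 0.41 TPM in the controls and at 0.42, 16.78 and 0.49 TPM in the knockdown-labelled libraries (adjusted p = 0.397), so its mean rests on knockdown replicate 2.

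Both genes were tested in 259 pairs, which held 256 different partners. Of those partners 73 were lower (28.5%) and 38 higher (14.8%), beside 24% and 12.1% of all tested genes. In 13 pairs both genes were lower, in 9 both were higher, and in 5 the directions differed. The antisense gene alone passed in 24 pairs, the partner alone in 86 and neither in 122. Such counts are not given for other opposite-strand pairs, so whether these are many or few was not tested. Log2 fold changes of antisense gene and partner had a Pearson correlation of 0.28 and a Spearman correlation of 0.26 across the 259 pairs. In 15 back-to-back pairs the Pearson correlation was 0.62 (Spearman 0.63), in 194 pairs with shared exonic bases 0.28 (0.26) and in 44 that overlapped without shared exonic bases 0.17 (0.11). The 3011 other opposite-strand pairs of tested genes gave a Pearson correlation of 0.12 (Spearman 0.15). Within them it was 0.16 (Spearman 0.17) in 1640 pairs with shared exonic bases, 0.10 (0.14) in 417 that overlapped without and 0.048 (0.14) in 940 back to back. These are descriptions across genes measured in the same 6 libraries, genes are not independent replicates, and differences between the correlations were not tested.

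**Figure D4:**
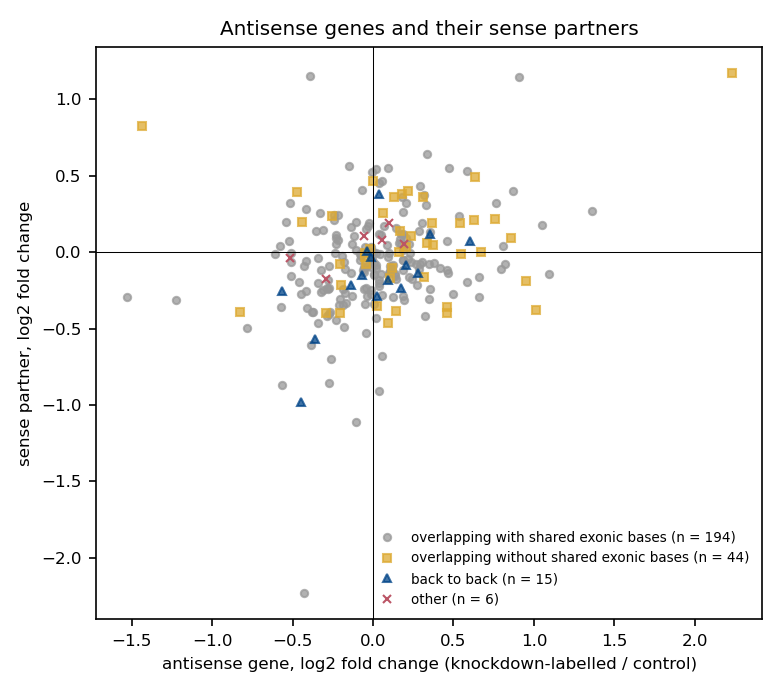
Log2 fold change on log2(TPM + 1) of each antisense gene (horizontal) and its sense partner (vertical) in the 259 pairs with both genes tested, knockdown-labelled libraries over controls, with a symbol for each arrangement. FIBCD1-AS1 and FIBCD1 stand at the upper right, at 2.23 and 1.17.

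The back-to-back pairs included ZMIZ1-AS1 with ZMIZ1 (log2 fold changes -0.56 and -0.26) and ZNF674-AS1 with ZNF674 (-0.36 and -0.57), the 2 such pairs in which both genes passed. ZNF674 reached the limit of 1 TPM through its controls. By arrangement, 26 of 229 antisense genes with shared exonic bases were lower and 20 higher, 3 of 58 that overlapped without them were lower and 8 higher, and 2 of 16 back-to-back genes were lower and 3 higher, where 24% of all tested genes were lower and 12.1% higher. Differences between arrangements were not tested. The antisense genes with partners and no shared exonic bases counted 81, of which 5 were lower and 11 higher.

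Whether an antisense gene and its partner moved by different amounts was tested on the log2 ratio of their TPM + 1 with limma, fitted over 3270 opposite-strand pairs. The ratio was lower in 16 and higher in 15 of the 259 named pairs, 12.0% in either direction, against 16.1% of all pairs fitted. Without control replicate 1 the counts were 9 lower and 11 higher, without control replicate 2 10 and 13, without control replicate 3 10 and 8, without knockdown replicate 2 8 and 9, and without knockdown replicate 3 10 and 10. With a limit of 5 TPM on both genes 10 were lower.

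In 5 pairs the genes passed in opposite directions. NECTIN3-AS1 (ENSG00000242242; minus strand of chromosome 3, 110893708 to 111071553) shares 0 exonic bases with NECTIN3, a cell adhesion gene. It was at 54.95, 56.07 and 52.45 TPM in the controls and at 78.57, 75.06 and 72.51 TPM in the knockdown-labelled libraries, while NECTIN3 was at 10.64, 10.41 and 11.67 against 8.49, 8.33 and 7.99 TPM. The groups were apart in both genes, with log2 fold changes of 0.46 ± 0.04 (SE; adjusted p = 0.000377) and -0.36 ± 0.06 (SE; adjusted p = 0.00476), and the ratio was higher by 0.82 (adjusted p = 0.0029).

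PAX8-AS1, opposite a paired-box transcription factor gene, was at 53.87, 54.85 and 54.03 TPM in the controls and at 38.41, 38.40 and 36 TPM in the knockdown-labelled libraries (log2 fold change -0.52 ± 0.04 SE, adjusted p = 0.000138). PAX8 was at 15.82, 16.03 and 14.15 against 21.26, 19.72 and 17.32 TPM (0.32 ± 0.08 SE, adjusted p = 0.0275). No values of the groups overlapped in either gene, and the ratio fell by 0.84 (adjusted p = 0.00275). The call of PAX8 itself was lost on leaving out any 1 library except knockdown replicate 3 (adjusted p from 0.0576 to 0.0874) and with no limit on low values (0.0683; range over the alternatives 0.0128 to 0.0874).

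ZBED5-AS1 was at 6.91, 5.43 and 5.98 TPM in the controls and at 8.52, 9.07 and 9.40 TPM in the knockdown-labelled libraries (log2 fold change 0.50 ± 0.09 SE, adjusted p = 0.00638). ZBED5, a gene derived from a DNA transposase, was at 21.26, 19.86 and 20.02 against 17.13, 16.56 and 16.37 TPM (-0.27 ± 0.04 SE, adjusted p = 0.00407). Both genes kept their groups apart, and the ratio was higher by 0.77 (adjusted p = 0.0056). A further tested gene, ENSG00000250041, overlaps ZBED5-AS1 on the opposite strand with 0 shared exonic bases. It rose from 1.83 ± 0.503 to 3.10 ± 0.340 TPM (SD, n = 3 each; log2 fold change 0.54, adjusted p = 0.0330). The RefSeq starts of ZBED5-AS1 and ZBED5 lie 164 bases apart, and the windows overlap on opposite strands. The 263 bases that both windows hold (chr11:10858004-10858266, read on the plus strand, that of ZBED5-AS1) are printed because the genes on either side of them went in opposite directions, all in lower case. They hold no ACGTG, and the TGANNNNGC match that both windows have is not marked in them.
ZBED5-AS1 and ZBED5 shared window: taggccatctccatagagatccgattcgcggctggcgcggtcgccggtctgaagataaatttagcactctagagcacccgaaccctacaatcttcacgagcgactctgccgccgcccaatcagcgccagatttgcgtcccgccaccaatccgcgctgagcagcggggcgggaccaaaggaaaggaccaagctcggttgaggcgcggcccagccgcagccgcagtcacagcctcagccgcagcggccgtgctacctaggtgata

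TRAF3IP2-AS1, opposite the gene for an adaptor of the interleukin-17 receptor and with 0 shared exonic bases, was at 3.30, 2.66 and 2.40 TPM in the controls and at 4.50, 3.36 and 4.77 TPM in the knockdown-labelled libraries (log2 fold change 0.46 ± 0.14 SE, adjusted p = 0.0498). TRAF3IP2 was at 57.69, 53.01 and 60.25 against 43.47, 43.49 and 41.71 TPM (-0.40 ± 0.05 SE, adjusted p = 0.00159). The groups of the antisense gene nearly met, at 3.30 and 3.36 TPM, and its call was lost without control replicate 2 or 3 or knockdown replicate 1 or 3 (adjusted p from 0.128 to 0.142), and when testing with no limit on low values (0.134), from 0.1 TPM (0.0724) or without the trend (0.0556; range over the alternatives 0.0274 to 0.142). The ratio was higher by 0.86 (adjusted p = 0.0167), and did not pass without control replicate 3 (0.0514) or knockdown replicate 1 (0.0543) or 3 (0.0509; range over the alternatives 0.0199 to 0.0559). TRAF3IP2-AS1 also shares 117 exonic bases with REV3L, a DNA polymerase gene on the opposite strand, which stood at 7.40 ± 0.388 and 7.18 ± 0.623 TPM (SD, n = 3 each; adjusted p = 0.713).

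DGUOK-AS1, opposite the gene for mitochondrial deoxyguanosine kinase, was at 18.47, 13.30 and 17.05 TPM in the controls and at 12.71, 11.83 and 11.00 TPM in the knockdown-labelled libraries (log2 fold change -0.42 ± 0.12 SE, adjusted p = 0.0369). DGUOK was at 137.94, 130.22 and 132.54 against 172.02, 156.76 and 159.32 TPM (0.28 ± 0.04 SE, adjusted p = 0.00291). The values of the groups did not overlap, and the ratio fell by 0.70 (adjusted p = 0.00859). The call of DGUOK-AS1 was lost after median-of-ratios scaling (0.0668), after quantile normalization (0.0689), when testing with no limit on low values (0.0936), from 0.1 TPM (0.0539) or without the trend (0.0552) and on leaving out any 1 library except control replicate 2 (adjusted p from 0.0600 to 0.117; range over the alternatives 0.00783 to 0.117).

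**Figure D5:**
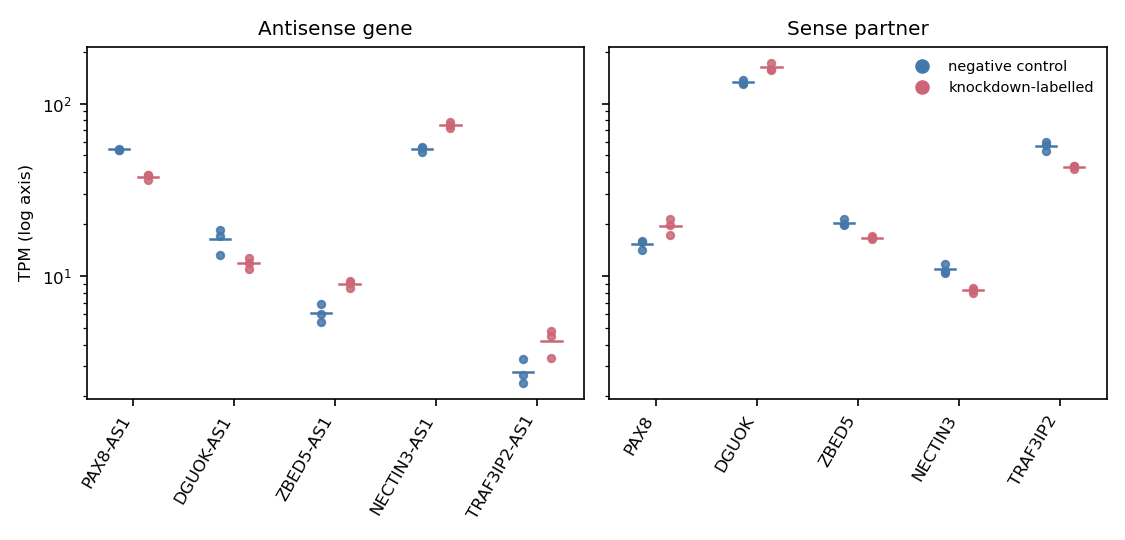
TPM of each library (log axis) for the 5 pairs that passed in opposite directions, antisense genes on the left and sense partners on the right. Points are libraries and short lines are group means of 3 libraries, and PAX8-AS1 and DGUOK-AS1 are lower in the knockdown-labelled libraries where their partners are higher.

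In other pairs the partner passed and the antisense gene did not, and these were chosen after their values were seen. An adjusted p over 0.05 does not show that an antisense gene kept its level. CLDN14, a claudin of tight junctions, fell from 23.1 ± 0.381 to 4.16 ± 0.468 TPM (SD, n = 3 each; log2 fold change -2.23, adjusted p = 8.44e-06), the largest fall of a tested partner. CLDN14-AS1 was at 2.06, 5.45 and 0.71 TPM in the controls against 0.37, 2.02 and 2.36 TPM and did not pass (adjusted p = 0.587), nor did the ratio (1.80 ± 0.56 SE, adjusted p = 0.0734). HAS2, a hyaluronan synthase gene, fell from 10.3 ± 0.167 to 4.24 ± 0.256 TPM (SD, n = 3 each; log2 fold change -1.11, adjusted p = 6.0e-05), and HAS2-AS1 stood at 2.78 ± 0.703 and 2.47 ± 0.196 TPM (SD, n = 3 each; adjusted p = 0.619), with a ratio higher by 1.01 (adjusted p = 0.0136). ARRDC3, an arrestin-domain gene, rose from 7.98 ± 0.400 to 18.9 ± 1.09 TPM (SD, n = 3 each; log2 fold change 1.15, adjusted p = 5.3e-05), beside 1.51 ± 0.303 and 0.903 ± 0.184 TPM for ARRDC3-AS1 (SD, n = 3 each; adjusted p = 0.0951), and the ratio fell by 1.54 (adjusted p = 0.0038). ARRDC3-AS1 reached the limit of 1 TPM through its controls. SVIL, which encodes the actin-binding supervillin, fell from 25.8 ± 0.296 to 13.3 ± 1.18 TPM (SD, n = 3 each; log2 fold change -0.91, adjusted p = 0.000156), where SVIL-AS1 was at 24.3 ± 2.19 and 24.9 ± 0.693 TPM (SD, n = 3 each; adjusted p = 0.705), with a ratio higher by 0.94 (adjusted p = 0.00346). PPP1R14B rose from 245 ± 9.92 to 352 ± 12.4 TPM (SD, n = 3 each; log2 fold change 0.52, adjusted p = 0.000177), unlike the abundant PPP1R14B-AS1 across from it (adjusted p = 0.964), and the ratio fell by 0.53 (adjusted p = 0.00228).

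Divergent transcripts, a further class of noncoding genes that start next to a coding gene and carry symbols ending in -DT, numbered 140 with a mean that reached 1 TPM. Of these 6 were lower and 6 higher, 8.57% in either direction against 36.1% of all tested genes, and among the 12 that passed the largest changes were those of SAP30-DT (2.55 ± 0.630 to 6.18 ± 0.495 TPM), PRICKLE2-DT (3.92 ± 0.221 to 1.71 ± 0.0954 TPM) and OSMR-DT (1.64 ± 0.202 to 0.497 ± 0.197 TPM; SD, n = 3 each). OSMR-DT reached the limit through its controls. The median level of the 140 was 2.39 TPM, and of all genes from 1 to under 2 TPM and from 2 to under 5 TPM 11.8% and 20.2% passed. The nuclear exosome and its adaptors, which degrade many noncoding transcripts, had 4 of 20 genes lower (20%) and 1 higher (5%), where 24% and 12.1% of all tested genes were. The log2 fold changes were -0.34 for SRRT, -0.31 for EXOSC4 and -0.26 for EXOSC2, and PABPN1 was the higher gene (0.19, adjusted p = 0.00234). Among 18 genes of early transcription termination 4 were lower (22.2%) and 0 higher in limma (1 higher at an unadjusted p under 0.05), led by INTS5 (-0.30), INTS14 (-0.29) and INTS8 (-0.24). Of 11 genes for the editing, cleavage and sensing of double-stranded RNA 2 were lower (18.2%), ADAR (-0.19) and EIF2AK2 (-0.17), and 0 higher (0 at an unadjusted p under 0.05). The medians of these lists were 0.05, -0.08, -0.11 and -0.10, beside -0.060 for all tested genes, and none of their genes apart from SAP30-DT passed the fold limit.

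The cell line was checked against markers. VIM, CD44, NES, FN1 and CHI3L1, expressed by mesenchymal-like glioblastoma cells, were all at a mean of at least 1 TPM and summed to 8157, 8111 and 8312 TPM in the controls and 8444, 8631 and 8606 TPM in the knockdown-labelled libraries, most of it VIM. All 5 passed, and in different directions: FN1 (-0.57, adjusted p = 7.41e-06) and CD44 (-0.33, adjusted p = 0.000529) fell, while VIM (0.17, adjusted p = 0.000416), NES (0.50, adjusted p = 0.0151) and CHI3L1 (0.42, adjusted p = 0.000305) rose on the log2 scale. Of the glial markers only GFAP reached a mean of 1 TPM, at 1.15 TPM. GFAP, OLIG2, S100B and SOX2 summed to 1.50, 1.50 and 2.12 TPM in the controls against 1.73, 2.26 and 1.53 TPM. OLIG2, S100B and SOX2 were at 0.56 TPM or under in every library. Leukocyte markers (PTPRC, TYROBP, AIF1, LYZ, CD3E) summed to at most 0.62 TPM, with TYROBP and CD3E at 0 in all libraries, and endothelial markers (PECAM1, CDH5, VWF) to at most 0.25 TPM. Of 3 neuronal markers, summed to 10.9, 9.37 and 9.83 against 14.07, 14.62 and 14.18 TPM, SNAP25 alone reached a mean of 1 TPM, and it rose (log2 fold change 0.47, adjusted p = 0.00255), while RBFOX3 was at 0.15 TPM or under. SYT1 was under the limit and not tested, at 0.19, 0.21 and 0.26 TPM in the controls against 0.51, 0.41 and 0.50 TPM, with no overlap. The part of these markers in the results was not tested. Of 3 epithelial markers only EPCAM reached 1 TPM on average, and they summed to 1.18, 0.81 and 1.04 TPM in the controls against 1.59, 1.17 and 1.5 TPM. CDH1 was listed at 0 in all 3 controls and at 0.11, 0.07 and 0.02 TPM in the knockdown-labelled libraries. KRT19 was at 0.04, 0.12 and 0.41 TPM in the controls and at 0.04, 0.04 and 0.09 TPM in the knockdown-labelled libraries. Its mean was lower in the knockdown-labelled libraries, and the groups overlapped.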

How the data were processed

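The study describes TRIzol extraction and a TruSeq kit, whereas the labels name RNeasy and SMARTer kits. The submitters' processing notes name fastp, RSEM and GRCh38.p13. The authors deposited TPM per gene and library, with 2 decimals. TPM keeps no depth, so the depth per library is unknown and no counting error is given. No column was left without a sample.

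Symbols came from a table of gene names (61369 of 61541 Ensembl identifiers matched) and coordinates from GENCODE 29. With limma 3.58.1 (R 4.3.3; lmFit, eBayes with a mean-variance trend), log2(TPM + 1) was fitted with group as the only term, for genes whose mean reached 1 TPM, with Benjamini-Hochberg adjustment. All adjusted p-values come from limma. Ratios were fitted over opposite-strand pairs that overlap or start within 5000 bases, and all named pairs. Both fits were tested on simulated data.

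Named genes were the 8 largest falls and 8 largest rises past an adjusted p of 0.05, the 5 most abundant, pairs passing in opposite directions (at most 8), pairs past the fold limit of 1 in both genes, the 5 genes nearest to either side of 1 TPM, CHRM3 with its antisense genes, and of each other list the 3 largest changes that passed. Results for a few genes under these rules are not reported here. Members and lists were chosen with earlier results of these data known. Alternatives varied the pseudocount, the limit on low values, the scaling and the trend, added the replicate number as a term, or left out each library.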

Additional observations from a re-analysis of the deposited data

Results flagged for a closer look

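BDNF-AS carries no digits after -AS and so lies outside the 316 genes. It was at 1.95, 1.12 and 1.47 TPM in control replicates 1, 2 and 3 and at 2.54, 2.95 and 2.07 TPM in the knockdown-labelled ones, a mean of 2.52 ± 0.440 against 1.51 ± 0.417 TPM (SD, n = 3 each). Every knockdown-labelled library was above every control, which drew attention to it, and it did not pass in limma (log2 fold change 0.49, adjusted p = 0.0599, and 0.159 with no limit on low values).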

How the results depend on the processing

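Of 52 results for named genes, partners and ratios, 37 kept their direction and their side of the threshold under every alternative run. The most abundant antisense gene, PPP1R14B-AS1, did not pass in any fit, and its log2 fold change was 0.067 after median-of-ratios scaling, 0.055 after quantile normalization and -0.046 to 0.032 on leaving out 1 library, against -0.0035. That of ZNF232-AS1, 0.035, became -0.0078 to 0.098 on leaving out 1 library, below 0 without control replicate 2. PRR34-AS1 passed without control replicate 2 (adjusted p = 0.0377; range over the alternatives 0.0377 to 0.311).

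Antisense genes lower past the threshold numbered 31, with 18 under no limit on low values, 19 under the limit of 5 TPM and 22 to 26 on leaving out 1 library. The 32 higher ones became 16, 12 and 18 to 26. Fewer genes were tested under the 5 TPM limit (9806) and more with no limit (30412). Shares of all tested genes are not given beside these counts. With the fold limit the 2 lower genes became 4 at a pseudocount of 0.1 and numbered 2 on leaving out any library. The 4 higher ones became 10 at 0.1, 7 at 0.5 and 2 to 6 on leaving out 1 library. Under the limit of 5 TPM 0 were higher in limma, also at an unadjusted p under 0.05. Of the 63 antisense genes that passed, 54 also passed after median-of-ratios scaling and 54 after quantile normalization, 34 with no limit on low values, 30 under the limit of 5 TPM and 38 to 45 on leaving out 1 library (38 without control replicate 2, 39 without control replicate 3 or knockdown replicate 1, 40 without knockdown replicate 3). Among the 63, only 18 lower and 13 higher genes reached 5 TPM, so the others were not tested under that limit. The lower ratios, 16 in number, became 10 under the limit of 5 TPM and 8 to 11 on leaving out 1 library, and the 15 higher ones 8 to 13. Where not given by the number of genes or libraries, the cause was not tested.

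With the replicate number as a block, 24 antisense genes were lower and 27 higher, 2 lower and 3 higher past the fold limit, and 9 ratios were lower and 8 higher. The calls of NARF-AS2 (adjusted p = 0.0583), TRAF3IP2-AS1 (0.0701), GCLC (0.0698), NARF (0.112) and the TRAF3IP2-AS1 ratio (0.0559) were lost under the block. Correlations of deviations between samples of the same number were -0.020, 0.034 and 0.033 for numbers 1, 2 and 3. Between samples of unlike number they ran from -0.066 to 0.034. With 3 libraries per group these values cannot settle whether the numbers pair the samples. Since depth is unknown, the precision of levels near 1 TPM rests on the spread between libraries.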
